A study of Homo sapiens with 6 samples.

Results

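Major histocompatibility complex (MHC) class I molecules display peptides from inside the cell on its surface, where CD8+ T cells and natural killer cells read them. A class I molecule is made of a heavy chain, encoded by HLA genes, and the light chain beta-2-microglobulin, encoded by B2M. Peptides cut by the proteasome are carried into the endoplasmic reticulum by the transporter TAP1-TAP2 and are loaded with the help of tapasin, the product of TAPBP, while NLRC5 activates transcription of class I genes. Most nucleated cells carry the pathway, hepatocytes at a low level, and interferons raise it.

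The genes described are HLA-B, HLA-C, HLA-E, HLA-F, B2M, TAP1, TAP2, TAPBP and NLRC5, chosen by name, which are 9 of the 29153 genes listed. RNA was sequenced from HepG2, an established human liver cancer line, 72 h after infection with a control hairpin lentivirus (sh-NC) or with 1 hairpin lentivirus against LINC01977 (sh-LINC01977, marked sh3 in the labels), a long noncoding RNA. Each group held 3 libraries, and nothing stated whether they came from separate infections, so that p-values measure only the spread between these libraries. The comparison asks which transcripts differ when LINC01977 is targeted. A gene was tested when its mean FPKM (fragments scaled to gene length and library size) over the 6 libraries was at least 0.5, which 13452 genes and 7 of the 9 class I genes passed. HLA-F and NLRC5 lay below that filter and were read from a fit of all listed genes.

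Total counts were between 49929024 and 60441515 in a library. The targeted gene had 4, 0 and 16 counts under sh-NC and 0, 0 and 4 under sh-LINC01977, so that a reduction was not detectable at this depth (log2 fold change -2.12 ± 1.96 SE, edgeR adjusted p = 0.58). The 10 hepatocyte and HepG2 markers were all past the filter. Their summed FPKM was 4565 to 4939 in sh-NC and 3294 to 3355 in sh-LINC01977 libraries, and by adjusted p 7 were called lower and 1 higher. ALB, the highest of them in sh-NC cells, had a log2 fold change of -1.09. In bulk RNA, fewer cells of a type and less RNA per cell cannot be told apart. Fibroblast and endothelial markers were near 0, with summed FPKM of at most 0.0403 and 0.441. PTPRC, the defining leukocyte marker, had 4, 0 and 0 counts in sh-NC libraries and 0 in every sh-LINC01977 library.

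None of the class I genes passed an adjusted p of 0.05 in either direction, that is 0 of the 7 tested, against 15.1% of all tested genes (7.05% higher and 8.07% lower in sh-LINC01977 cells). None passed the study's thresholds of a 2-fold change with an unadjusted p of 0.05, which 2.6% of all tested genes passed, and none had an unadjusted p under 0.05, against 30.5% of all tested genes. DESeq2 also gave 0 at either p, whereas edgeR on library totals and limma each gave 1 at the unadjusted p. The median log2 fold change of the 7 genes was 0.06, with 6 of 7 above 0, and that of all tested genes was -0.0010. The 3 libraries of one group lay wholly to one side of the other for 1 of the 7, TAP2, against 37.1% of all tested genes. With the third sh-NC library left out, 1 of the 7, B2M, passed the adjusted p and the study's thresholds.

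**Figure D1:**
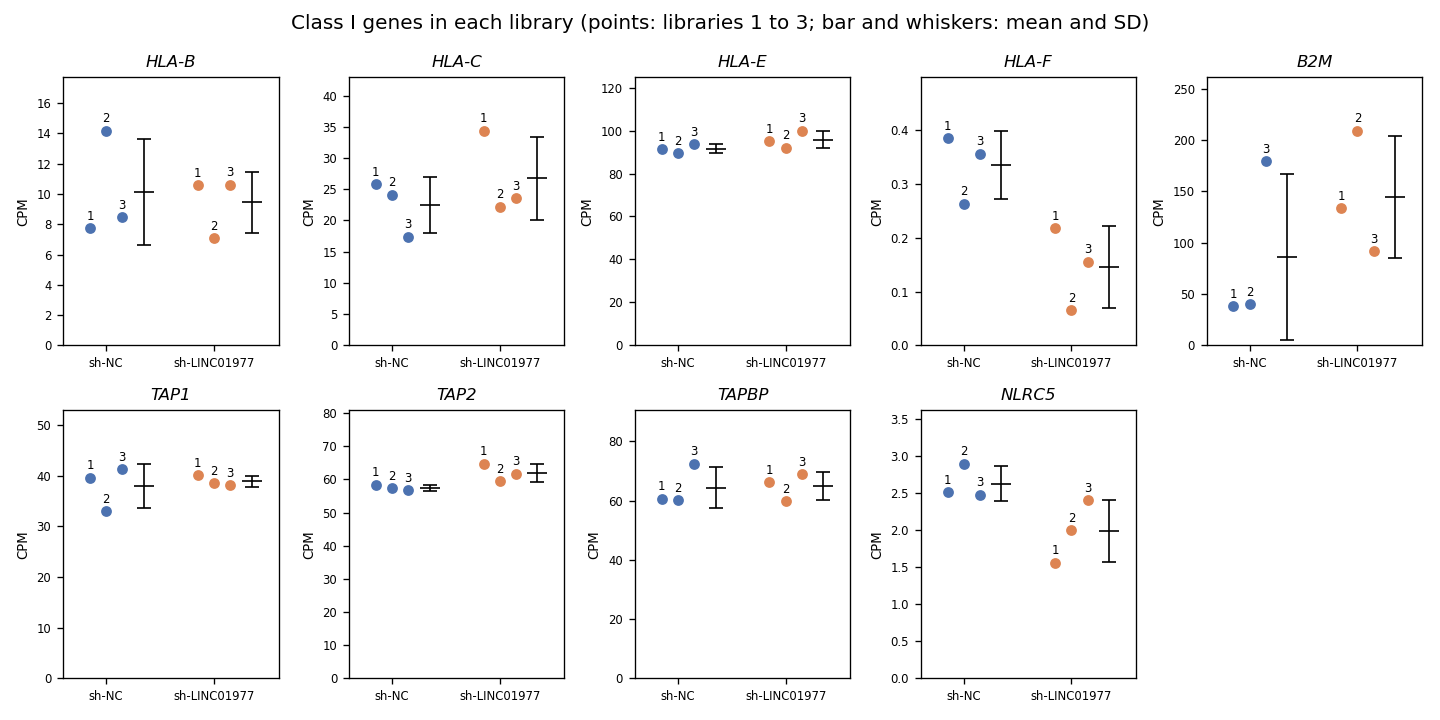
Level of each class I gene in CPM (counts scaled to library size, vertical axis from 0, own scale in each panel) for the libraries numbered 1 to 3 of sh-NC (blue) and sh-LINC01977 (orange), with the mean and SD of each group as a bar and whiskers. The groups overlap for HLA-B, HLA-C, HLA-E, B2M, TAP1 and TAPBP, and B2M spreads over 38.5 to 179.7 CPM within sh-NC.

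**Figure D2:**
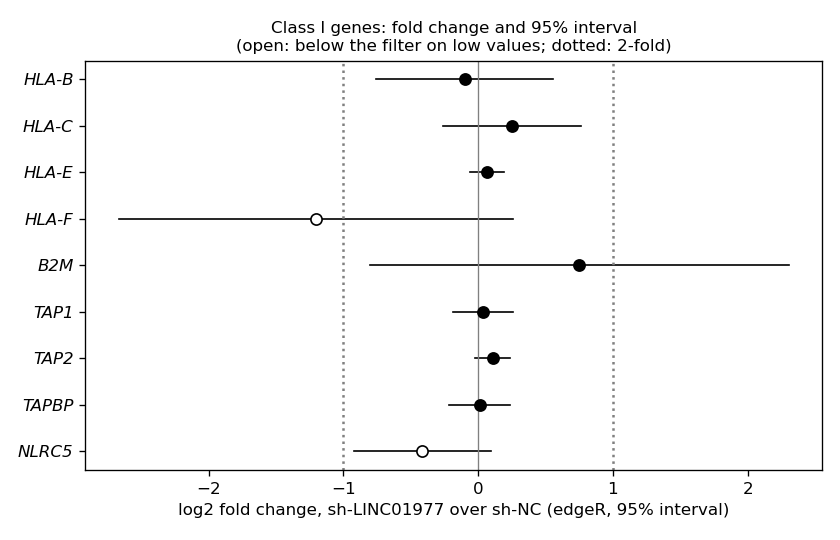
Log2 fold change of each class I gene, sh-LINC01977 over sh-NC, from edgeR with its 95% interval as a line. Filled points passed the filter on low values, open points (HLA-F, NLRC5) did not, and dotted lines mark a 2-fold change. Every interval holds 0, and those of B2M and HLA-F also reach past 2-fold.

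Of the 9 genes, 7 lie on chromosome 6, with B2M on chromosome 15 and NLRC5 on chromosome 16. Class I promoters are known to hold a module read by RFX, CREB/ATF and NF-Y proteins together with NLRC5, and elements for interferon regulatory factors and NF-kB. Sets of letters for these were therefore searched on both strands in the 250 bases before the RefSeq start of each gene (GRCh38.p14). Promoters were found for 7 of the 9 genes, and HLA-E and NLRC5 had no entry. A RefSeq start can differ from the gene intervals given below. Of the windows printed, those of TAP1 and TAPBP lie inside the intervals of these genes. The letters CCAAT, bound by NF-Y, occur in 32% of 35116 promoters, TGACG, the core of a CREB/ATF site, in 21.2%, GGGNNTTCC, of the NF-kB kind, in 5.78%, and GAAA followed after 2 free bases by GAAA, the core of the interferon-stimulated response element, in 3.02%. The windows printed here span the matches in the promoters of both classical heavy chains, the light chain, one transporter subunit and tapasin, because they show which letters the heavy chain, light chain and loading genes share. Each is given 5′ to 3′ on the strand of its gene, with every match in capitals, whichever strand carries it (ATTGG is CCAAT read on the other strand).
HLA-B (chr6:31357226-31357361, minus strand): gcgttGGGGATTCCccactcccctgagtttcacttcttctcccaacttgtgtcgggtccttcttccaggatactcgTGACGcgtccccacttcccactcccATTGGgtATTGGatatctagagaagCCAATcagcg
HLA-C (chr6:31272139-31272289, minus strand): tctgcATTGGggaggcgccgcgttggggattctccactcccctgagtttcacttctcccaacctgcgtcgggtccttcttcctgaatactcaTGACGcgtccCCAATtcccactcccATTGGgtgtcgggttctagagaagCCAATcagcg
B2M (chr15:44711368-44711477, plus strand): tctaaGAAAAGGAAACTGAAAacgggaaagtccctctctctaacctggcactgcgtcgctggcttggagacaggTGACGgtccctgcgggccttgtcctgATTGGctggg
TAP1 (chr6:32853818-32853954, minus strand): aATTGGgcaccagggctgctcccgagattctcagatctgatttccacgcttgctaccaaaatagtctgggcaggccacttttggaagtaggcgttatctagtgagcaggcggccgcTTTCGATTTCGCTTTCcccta
TAPBP (chr6:33314079-33314138, minus strand): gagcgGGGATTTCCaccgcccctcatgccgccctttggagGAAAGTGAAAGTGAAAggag

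HLA-B and HLA-C both held TGACG followed by CCAAT letters closer to the start, and HLA-B also held GGGNNTTCC. B2M held TGACG and CCAAT letters with 2 overlapping matches of the interferon element upstream of them. TAP1 and TAPBP held 2 overlapping matches of the interferon element each and no TGACG. TAP2 held 1 match of the interferon element and 1 TGACG, and HLA-F 1 match of it and 2 CCAAT. A match describes letters only, and binding was not measured.

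B2M (ENSG00000166710, GRCh38 chromosome 15, 44711477 to 44718877, plus strand) encodes the light chain that heavy chains need to reach the surface. It held 2094, 1969 and 10579 counts under sh-NC, and 7345, 12721 and 4717 under sh-LINC01977. The first and second sh-NC libraries were the lowest of the 6, and the sh-NC library numbered 3 was the second highest, so the groups overlapped. Scaled to library size the levels were 38.5, 39.9 and 179.7 CPM against 133.5, 209.0 and 91.6 CPM. The means were 86.0 ± 81.2 and 144.7 ± 59.5 CPM (SD, n = 3), a fold of 1.68 with a 95% interval of 0.573 to 4.93 (log2 fold change 0.75 ± 0.65 SE, edgeR adjusted p = 0.484; exact two-sided permutation test, p = 0.3).

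The result for B2M turned on the third sh-NC library. Without it the log2 fold change was 1.89 and the adjusted p 0.0311, past the threshold. With any other library left out the log2 fold change was 0.39 to 0.99 and the gene was not called. The highest sh-NC library held 4.67 times the CPM of the lowest, and the highest sh-LINC01977 library 2.28 times that of its lowest. Of the 7807 tested genes with a mean count of at least 1000, 66 (0.845%) had a ratio above 4 within a group, 49 had a ratio at least that of B2M, and the median was 1.16. In each group the library with the most B2M was also the one with the highest total count, 59888839 for sh-NC and 60441515 for sh-LINC01977. The other sh-NC libraries, 1 and 2, held 56634020 and 50583944 total counts, with 38.5 and 39.9 CPM of B2M. The other sh-LINC01977 libraries, 1 and 3, held 54187661 and 49929024, with 133.5 and 91.6 CPM. These CPM are already scaled to library size. No 50-base word of the annotated B2M transcripts occurred in the transcripts of another gene. What part depth has in the spread was not tested.

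**Figure D3:**
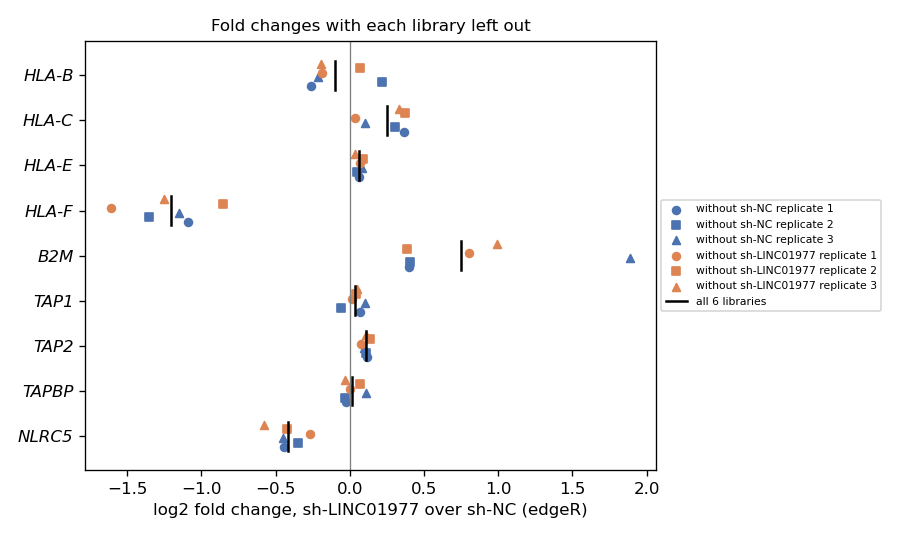
Log2 fold change of each class I gene from edgeR with 1 library left out in turn (blue for an sh-NC library, orange for an sh-LINC01977 library; circle, square and triangle for libraries 1, 2 and 3), and with all 6 libraries as a black bar. B2M moves from 0.75 to 1.89 without the third sh-NC library, and HLA-B, TAP1 and TAPBP fall on both sides of 0.

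Among the heavy chains, HLA-B and HLA-C encode classical chains that present peptides to CD8+ T cells. HLA-B (ENSG00000234745, chromosome 6, 31269491 to 31357188, minus strand) had 422, 699 and 498 counts in sh-NC and 583, 432 and 547 in sh-LINC01977 libraries. The highest and the lowest of the 6 counts were both in sh-NC libraries, so the groups overlapped. By CPM the fold was 0.932 (95% interval 0.592 to 1.47; log2 fold change -0.10 ± 0.27 SE, adjusted p = 0.842). Without the second sh-NC library, which held the highest count, the log2 fold change turned to 0.22, and without the second sh-LINC01977 library to 0.07.

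HLA-C (ENSG00000204525, chromosome 6, 31268749 to 31272130, minus strand) had 1405, 1191 and 1025 counts in sh-NC and 1891, 1353 and 1216 in sh-LINC01977 libraries. Only the first sh-LINC01977 library stood above every sh-NC library in CPM, and the groups overlapped. The fold was 1.19 (95% interval 0.837 to 1.70; log2 fold change 0.25 ± 0.21 SE, adjusted p = 0.473), and without that library the log2 fold change was 0.03. The annotated interval of HLA-B overlaps HLA-C on the same strand. Of the 50-base words of their transcripts, 17.8% for HLA-B and 5.7% for HLA-C occur in other genes, so reads may have been divided among genes and both values are uncertain.

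HLA-E and HLA-F encode nonclassical chains, and HLA-E is known to present peptides from leader sequences of other class I chains to receptors of natural killer cells. HLA-E (ENSG00000204592, chromosome 6, 30489467 to 30494205, plus strand) had 4980, 4416 and 5521 counts in sh-NC and 5239, 5603 and 5142 in sh-LINC01977 libraries. It was the steadiest heavy chain among the 9 genes, with 91.6 ± 2.15 CPM against 95.7 ± 3.93 CPM (SD, n = 3), and the groups overlapped. The fold was 1.05 with a 95% interval of 0.958 to 1.14 (log2 fold change 0.06 ± 0.05 SE, adjusted p = 0.461).

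HLA-F (ENSG00000204642, chromosome 6, 29722775 to 29738528, plus strand) had 21, 13 and 21 counts in sh-NC and 12, 4 and 8 in sh-LINC01977 libraries. Every sh-LINC01977 library lay below every sh-NC library, the nearest pair holding 12 and 13 counts. The log2 fold change was -1.20 ± 0.63 SE (adjusted p = 0.388; exact permutation p = 0.1, the smallest that 3 libraries against 3 allow). The fold of 0.434 had a 95% interval of 0.158 to 1.20. HLA-F overlaps HLA-F-AS1 on the opposite strand, which held 58 to 90 counts, and 21.6% of its 50-base words occur in other genes, so its few counts may not all be its own.

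TAP1 and TAP2 form the transporter that moves peptides into the endoplasmic reticulum. TAP1 (ENSG00000168394, chromosome 6, 32845209 to 32853978, minus strand) had 2158, 1627 and 2430 counts in sh-NC and 2208, 2343 and 1964 in sh-LINC01977 libraries. The sh-LINC01977 libraries lay inside the range of the sh-NC libraries, at 38.1 to 40.1 CPM against 33.0 to 41.3 CPM. The fold was 1.03 (95% interval 0.879 to 1.20; log2 fold change 0.04 ± 0.09 SE, adjusted p = 0.835). TAP1 overlaps PSMB9 and PSMB8-AS1 on the opposite strand. Whether counting used strand is not given in the sources used here, and 9.78% of its 50-base words occur in other genes.

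TAP2 (ENSG00000204267, chromosome 6, 32821833 to 32838780, minus strand) had 3182, 2833 and 3338 counts in sh-NC and 3562, 3616 and 3180 in sh-LINC01977 libraries. In CPM the sh-NC libraries held 58.4, 57.4 and 56.7 and the sh-LINC01977 libraries 64.7, 59.4 and 61.8, with no overlap. The fold was 1.08 with a 95% interval of 0.983 to 1.18 (log2 fold change 0.11 ± 0.06 SE, adjusted p = 0.241; exact permutation p = 0.1, the smallest possible). The adjusted p stayed between 0.0884 and 0.454 under the 15 alternatives. The counted transcripts share 31.3% of their 50-base words with AL669918.1, which lies on the same strand and held 12 to 62 counts.

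TAPBP (ENSG00000231925, chromosome 6, 33299694 to 33314387, minus strand) encodes tapasin, which bridges the transporter and the empty class I molecule. Its counts were 3304, 2962 and 4262 in sh-NC and 3638, 3645 and 3547 in sh-LINC01977 libraries. The third sh-NC library was the highest of the 6 and the groups overlapped. At 64.4 ± 6.97 and 65.0 ± 4.61 CPM (SD, n = 3), the fold was 1.01 (95% interval 0.863 to 1.18; log2 fold change 0.01 ± 0.09 SE, adjusted p = 0.945). The sign of the log2 fold change was negative under 4 of the 15 alternatives. For HLA-E, TAP1, TAP2 and TAPBP together, the intervals thus ran from 0.863-fold to 1.20-fold.

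NLRC5 (ENSG00000140853, chromosome 16, 56989485 to 57083531, plus strand) encodes the class I transactivator. Its counts were 137, 143 and 146 in sh-NC and 86, 122 and 124 in sh-LINC01977 libraries. Every sh-LINC01977 library was below every sh-NC library, at 1.56 to 2.41 CPM against 2.48 to 2.90 CPM. The log2 fold change was -0.41 ± 0.22 SE (adjusted p = 0.396; exact permutation p = 0.1), a fold of 0.751 with a 95% interval of 0.527 to 1.07. No 50-base word of NLRC5 was shared with another gene.

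Levels between genes were compared per length, as the FPKM of the sh-NC libraries. HLA-E was the highest at 24.4 ± 0.676 FPKM (SD, n = 3), and all its libraries stood above those of the other class I genes described, whereas in sh-LINC01977 libraries B2M overlapped it. B2M at 11.3 ± 10.7 FPKM held 4.94, 5.22 and 23.6 FPKM in the sh-NC libraries 1, 2 and 3. It therefore overlapped TAPBP at 10.1 ± 1.17 FPKM and also TAP2, HLA-C and TAP1, and could not be ordered against them. TAP2 at 7.14 ± 0.0406, HLA-C at 7.08 ± 1.36 and TAP1 at 6.58 ± 0.754 FPKM lay below TAPBP and could not be ordered among themselves, since their ranges overlapped. HLA-B followed at 2.62 ± 0.924 FPKM, then NLRC5 at 0.162 ± 0.0147 and HLA-F at 0.0548 ± 0.0116 FPKM, with no overlap.

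The length behind these FPKM values bears on that order. For 6 of the 9 class I genes, the length implied by count and FPKM was within 1% of the merged length of all exons of the listed transcripts. The exceptions were HLA-B, HLA-F and NLRC5. For B2M the implied length was 6089 to 6105 bases, whereas its annotated coding transcripts are 933 to 1705 bases long. Its FPKM is therefore lower than a value per length of coding transcript would be, and its place below HLA-E is given on that scale only. Differences between groups for one gene do not depend on this length.

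The rest of the pathway was read from 8 lists of 90 genes, of which 61 were tested. Of these, 18 were called higher (29.5%) and 0 lower, against 7.05% and 8.07% of all tested genes. The lists were chosen with earlier results of these data known, so these shares are a description and no test of the pathway. Leaving out sh-LINC01977 library 2 or library 3 left 11 called, all higher, and DESeq2 called 25, of which 23 were higher and 2 lower. The median log2 fold change was 0.16 over the 61 genes.

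**Figure D4:**
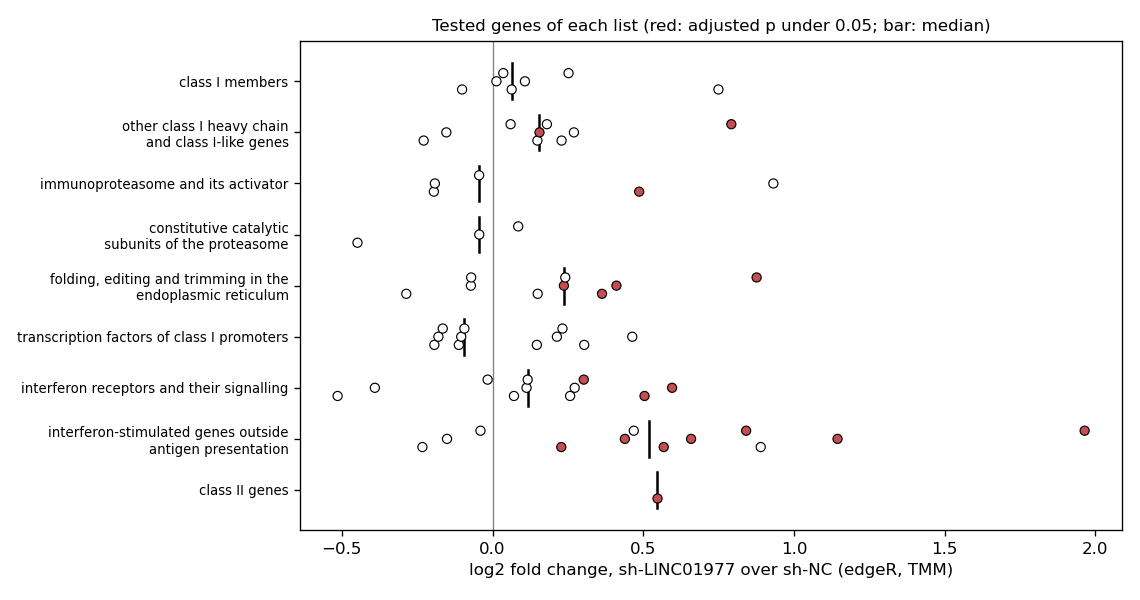
Log2 fold change of each tested gene, sh-LINC01977 over sh-NC, by list, with genes at an adjusted p under 0.05 in red, the others open, and the list's median as a bar. The 7 tested class I genes hold no call, and the interferon-stimulated list holds 7 calls of 12.

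The immunoproteasome replaces catalytic subunits of the proteasome and yields peptides suited to class I. Of its 5 listed genes 1 was called higher, against 7.05% of all tested genes. PSMB8, a catalytic subunit, had 22.8, 18.3 and 23.8 CPM in sh-NC and 30.5, 29.4 and 31.0 CPM in sh-LINC01977 libraries, with no overlap. It rose by a log2 fold change of 0.49 ± 0.11 SE (adjusted p = 0.0296), and leaving out one library gave adjusted p values of 0.0362 to 0.0861.

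PSMB9, another catalytic subunit, had 96, 57 and 104 counts in sh-NC and 179, 212 and 114 in sh-LINC01977 libraries. All its sh-LINC01977 libraries were higher in CPM, and 37.1% of all tested genes had groups that did not overlap. The log2 fold change was 0.93 ± 0.27 SE (adjusted p = 0.0631), and the adjusted p was 0.0198 with DESeq2 and 0.0464 with library totals. Its mean FPKM was 0.397 in sh-NC and 0.80 in sh-LINC01977 libraries. It thus passed the filter of 0.5 only through the sh-LINC01977 libraries, which limits what its difference can show. PSMB9 overlaps TAP1 on the opposite strand, so reads of the 2 genes may not be separable. PSMB10, the remaining catalytic subunit, had a log2 fold change of -0.19 (adjusted p = 0.62). PSME2, of the activator, was lower in all sh-LINC01977 libraries (log2 fold change -0.19, adjusted p = 0.0924). The 3 constitutive catalytic subunits held no call. Among them PSMB5 was lower in all sh-LINC01977 libraries (log2 fold change -0.45 ± 0.13 SE, adjusted p = 0.0592) and PSMB6 higher in all (0.09, adjusted p = 0.351).

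In the list of folding, editing and trimming in the endoplasmic reticulum, 4 of 9 genes were called higher, against 7.05% of all tested genes. None was called lower. CALR, calreticulin of the peptide-loading complex, had 1203, 1191 and 1203 CPM in sh-NC and 1541, 1634 and 1609 CPM in sh-LINC01977 libraries (log2 fold change 0.41 ± 0.04 SE, adjusted p = 0.00133). TAPBPL, a tapasin-related peptide editor, rose by 0.88 (adjusted p = 0.0399), ERAP2, an aminopeptidase that trims peptides, by 0.36 (adjusted p = 0.0349), and HSPA5, a general chaperone, by 0.24 (adjusted p = 0.00536) on the log2 scale. The calls of TAPBPL and ERAP2 were lost under some alternatives (adjusted p up to 0.111 and 0.109). In this list the groups did not overlap for 6 genes that were higher and 1 that was lower, against 37.1% of all tested genes. The lower one was CANX, the chaperone calnexin (log2 fold change -0.29 ± 0.16 SE, adjusted p = 0.267).

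Among other heavy chain and class I-like genes, 2 of 9 tested were called higher, against 7.05% of all tested genes. PROCR, a class I-like receptor that binds protein C and presents no peptide, had 9.99, 8.15 and 9.02 CPM in sh-NC and 14.8, 15.1 and 17.1 CPM in sh-LINC01977 libraries (log2 fold change 0.79 ± 0.12 SE, adjusted p = 0.00688).

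None of the 11 tested transcription factors of class I promoters was called. An unadjusted p under 0.05 was found for 3 of the 11, against 30.5% of all tested genes. The groups did not overlap for 3 that were higher and 1 that was lower, against 37.1% of all tested genes. The lower one was NFKB1 (log2 fold change -0.17, adjusted p = 0.165). IRF1, an interferon-induced activator of the pathway, had a log2 fold change of 0.30 ± 0.12 SE (adjusted p = 0.141), with all sh-LINC01977 libraries above the sh-NC libraries. RFX5, a subunit of the RFX complex, had 0.21 (adjusted p = 0.57), and without the second sh-NC library -0.02. CIITA, the class II transactivator, lay below the filter, with -0.30 (adjusted p = 0.571).

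Of 11 tested interferon receptor and signalling genes, 3 were called higher, against 7.05% of all tested genes. IFNGR1, a chain of the interferon-gamma receptor, had 82.2, 84.8 and 87.7 CPM in sh-NC and 129.9, 129.1 and 126.2 CPM in sh-LINC01977 libraries (log2 fold change 0.60 ± 0.05 SE, adjusted p = 0.00113). The kinase JAK1 rose by 0.30 (adjusted p = 0.00973) and STAT2, a transcription factor of type I interferon signalling, by 0.50 (adjusted p = 0.00395). The groups did not overlap for 5 genes that were higher and 1 that was lower, against 37.1% of all tested genes. The lower one was IFNGR2, the other chain of the interferon-gamma receptor (log2 fold change -0.39 ± 0.12 SE, adjusted p = 0.0725).

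Of the 21 listed interferon-stimulated genes outside antigen presentation, 12 were tested and 7 were called higher, against 7.05% of all tested genes. IFIT1 and MX1 were among those below the filter. BST2, which tethers virus particles to the cell, had 77.8, 71.9 and 72.3 CPM in sh-NC and 127.2, 136.5 and 134.1 CPM in sh-LINC01977 libraries (log2 fold change 0.84 ± 0.06 SE). IFITM1, IFITM2 and IFITM3, membrane proteins that restrict virus entry, rose by 1.96, 1.14 and 0.66 on the log2 scale. IFITM1 and IFITM2 overlap on the same strand and are close paralogs, so their counts are uncertain. DDX58 (the RNA sensor RIG-I), OAS3 (an RNA-activated synthase) and GBP2 (a guanylate-binding protein) rose by 0.44, 0.23 and 0.57. The last 3 calls were each lost under some alternatives. Of the tested genes without a call, ISG15, IFI35 and IFIH1 had negative log2 fold changes (-0.04, -0.23 and -0.15). IFI6 and OAS1 had positive ones (0.89 and 0.47).

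CD74, the invariant chain of class II molecules, was the only one of the 12 listed class II genes past the filter. It had 70.6, 74.5 and 76.1 CPM in sh-NC and 108.4, 108.3 and 106.6 CPM in sh-LINC01977 libraries (log2 fold change 0.55 ± 0.05 SE, adjusted p = 0.00153). Of the leukocyte markers, 5 were tested, with CD79A higher (log2 fold change 1.53), LYZ lower (-0.27) and PTPRC at 0 counts in every sh-LINC01977 library. Their summed FPKM was 626.8 to 634.5 in sh-NC and 545.8 to 560.8 in sh-LINC01977 libraries, nearly all of it LYZ.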

How the data were processed

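Total RNA of 6 HepG2 libraries, 3 sh-NC and 3 sh-LINC01977, came from a TRIzol extraction and was read on a HiSeq instrument (Illumina). The deposited counts are whole and unnormalized, and the deposited FPKM values were scaled by the authors to gene length and library total. Per the labels, bcl2fastq 2.0, HISAT2, StringTie, DESeq2, limma and hg38 were used, and their settings are not given in the sources used here.

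Samples were grouped by label. The test was the quasi-likelihood test of edgeR 4.0.16 in R 4.3.3, after TMM scaling, with p-values adjusted by Benjamini-Hochberg over the 13452 genes whose mean FPKM reached 0.5. CPM are counts over the tested genes' total times its TMM factor. The exact two-sided permutation test used log2(CPM + 0.5) and gives no p under 0.1. The class I genes and the lists were chosen with earlier results of these data known, and no list was given a set test. Named were all 9 class I genes, every called gene of the lists, PSMB8, PSMB9, PSMB10, IRF1, RFX5 and CIITA, the highest gene of a marker list, the 2 genes with the profile nearest to each class I gene and the class I gene nearest to it. CD79A, PTPRC, the overlapping genes, PSMB5, PSMB6, PSME2, NFKB1, IFNGR2, CANX and the uncalled interferon-stimulated genes were added after their values were seen. A few genes that this rule names are not reported here.

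Sequences shared with other genes were counted over GENCODE 29 transcripts in words of 50 bases. The coordinates of 8 of the 9 class I genes equal those in GENCODE 29. On simulated counts for the same 13452 genes, edgeR called 8% of genes changed by 0.5 on the log2 scale and 86% of those changed by 1 (50 genes each, sh-LINC01977 against sh-NC). Alternatives were RLE scaling, library totals, DESeq2 1.42.0, limma 3.58.1 on log2(FPKM + 0.1) and log2(FPKM + 1), other filters, a replicate block, robust dispersion (chosen after seeing the data) and leaving out each library.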

Additional observations from a re-analysis of the deposited data

How the results depend on the processing

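The number of class I genes past the adjusted p was 0 under every alternative that kept all 6 libraries, and 0 to 1 with 1 library left out, the 1 being B2M without sh-NC library 3. The number past the study's thresholds behaved alike, with 0 to 1. The called genes of the pathway lists numbered 18, and 11 to 14 with 1 library left out, 14 with no filter, 18 with RLE scaling, 19 with the stricter filter and with robust dispersion, 20 with limma at either pseudocount, 22 with library totals and 25 with DESeq2 (23 higher, 2 lower; every other setting gave 0 lower). Those over all tested genes numbered 2033, 2845 with DESeq2, and 1176 to 1398 with 1 library left out (1341 and 1323 without sh-NC library 1 and 2, and 1320, 1176 and 1256 without sh-LINC01977 library 1, 2 and 3). These alternatives hold fewer samples. Of the 18 pathway genes, 11 were called under all 15 alternatives and 7 were lost under at least 1. Whether the replicate numbers pair the libraries is not stated. The correlations of same-numbered libraries, after removing group means, were -0.034, 0.00506 and 0.0613, and those of the other pairs -0.054 to 0.0517. Such values cannot show how the libraries were prepared. With a replicate block, 0 class I genes, 13 pathway genes and 1390 genes overall were called, and B2M had a log2 fold change of 1.14. Library totals shifted the median over all tested genes, on the log2 scale, from -0.0010 to 0.065, and moved the share of higher calls from 46.6% (948 higher, 1085 lower) to 65.5% (1455 higher, 768 lower); limma gave 1269 higher and 729 lower. The sign of an uncalled log2 fold change turned for 5 genes with 1 library left out, with ranges of -0.26 to 0.22 for HLA-B, -0.056 to 0.10 for TAP1, -0.035 to 0.11 for TAPBP, -0.36 to 0.093 for PSMB10 and -0.015 to 0.43 for RFX5, and TAPBP also turned to -0.0010 with no filter on low values. The cause was not tested. Of the other values for single genes, 431 kept their direction and their side of the threshold, 44 lost the call and 3 gained it. Depth limits HLA-F and NLRC5, and in simulated counts 0% of changes of 0.25 and 8% of changes of 0.5 on the log2 scale were called.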

Other observations

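The tested genes whose profile over the 6 libraries lay nearest to that of a class I gene were found by the root mean square difference of log2 CPM, each profile centred on its mean. For B2M they were SCAMP5, at 0.295, and GMFB, at 0.397, against a spread of 0.964 in B2M itself. The class I gene nearest to B2M was TAP1, at 0.909, and 2677 other tested genes lay nearer. For HLA-B the nearest were PAPD5 and ZNF514, and for HLA-C CBLC and LY6E, at 0.053 to 0.097. WDR59 was the nearest to HLA-E. The nearest were for TAP1 TIMELESS and SMC6, for TAP2 TANC1 and QSOX2, and for TAPBP PRMT5 and SFN, at 0.014 to 0.037. HLA-E and TAP2 were each other's nearest class I gene, at 0.053, with 354 and 279 tested genes nearer still, and TAP2 was also the nearest to HLA-B and HLA-C. TAP1 and TAPBP had HLA-E as their nearest, at 0.093 and 0.079. These values describe 6 libraries from 2 groups and were not tested.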
